A study of Homo sapiens with 34 samples.

Results

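Long noncoding RNAs named in prostate cancer were followed through 4 human prostate cell lines. The genes were chosen by symbol from a list of 9 (PCA3, PCGEM1, PCAT1, PCAT14, SCHLAP1, DRAIC, NEAT1, MALAT1 and H19), and 8 of them have a row in the table of 26336 genes. PCAT14 has none and is not analysed here. RWPE is a non-tumorigenic prostate epithelial line, LNCaP a line from a lymph node metastasis that stands for early adenocarcinoma in this study, and VCaP and MDAPCa2a are lines from bone metastases. Cells were grown on plastic or on a layer of ACP, which is amorphous calcium phosphate, and poly(A)-selected RNA was sequenced. "Control" is each line's usual medium: serum-free keratinocyte medium with epidermal growth factor and pituitary extract for RWPE, and medium with fetal bovine serum for the other lines. "Stripped" is medium whose serum was passed over charcoal and dextran and is therefore poor in steroids, and "androgen" is stripped medium with an androgen at a labelled 100 mM, named DHT in the titles and testosterone in the treatment labels. Plastic control cultures are labelled continuous culture and all others day 4. LNCaP and VCaP had plastic control, plastic stripped, ACP control, ACP stripped and ACP androgen groups, MDAPCa2a had these without ACP control, and RWPE had plastic control, ACP control and ACP androgen only. The 34 libraries form 17 groups of 2, except RWPE on ACP with androgen with 3 and VCaP on plastic in stripped medium with 1. For MDAPCa2a the plastic carried an FNC protein coating that the ACP surface lacked, and each line is a single cell line, so differences between lines are differences between these cultures.

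Long noncoding RNAs are transcripts that are not translated into protein. PCA3 is a prostate-specific RNA used as a urine marker and lies antisense within an intron of PRUNE2, PCGEM1 is a prostate-specific RNA, PCAT1 and SCHLAP1 were found as transcripts raised in prostate tumours, SCHLAP1 in aggressive ones, and DRAIC is an RNA described as lost when tumours progress under androgen deprivation. NEAT1 is the scaffold of nuclear bodies called paraspeckles, and its neighbour MALAT1 is an abundant RNA of nuclear speckles. H19 is an imprinted RNA of fetal tissues and the host of a microRNA, MIR675, which had 0 reads in all 34 libraries. Poly(A)-selected libraries are not made to capture microRNAs, so these 0 reads do not show whether MIR675 was present. Prostate luminal cells depend on androgen, so steroid-poor serum and added androgen are the usual test of whether such an RNA is hormone-responsive.

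The windows around the annotated starts of PCA3, H19 and DRAIC are shown because these RNAs were called when androgen medium was compared with medium lacking it. Each runs from 250 bases before to 50 bases after a start in RefSeq (GRCh38.p14), 5′ to 3′ on the gene's strand. The submitters' processing notes name hg19 for the reads, so these positions are not from the count files. Capitals mark the half-site of the androgen response element, searched as AGAACA on both strands (TGTTCT on the strand shown). RefSeq's table held a window for 5 of the 9 symbols. PCA3 lies at chr9:76764186-76764485 on the plus strand, H19 at chr11:2001217-2001516 on the minus strand and DRAIC at chr15:69561470-69561769 on the plus strand.
PCA3: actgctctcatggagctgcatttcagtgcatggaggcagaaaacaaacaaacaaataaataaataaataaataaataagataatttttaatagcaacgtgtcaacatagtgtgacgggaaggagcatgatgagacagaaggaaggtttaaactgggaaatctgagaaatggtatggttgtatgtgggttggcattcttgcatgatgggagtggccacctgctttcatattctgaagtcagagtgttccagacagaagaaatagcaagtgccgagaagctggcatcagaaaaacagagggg
H19: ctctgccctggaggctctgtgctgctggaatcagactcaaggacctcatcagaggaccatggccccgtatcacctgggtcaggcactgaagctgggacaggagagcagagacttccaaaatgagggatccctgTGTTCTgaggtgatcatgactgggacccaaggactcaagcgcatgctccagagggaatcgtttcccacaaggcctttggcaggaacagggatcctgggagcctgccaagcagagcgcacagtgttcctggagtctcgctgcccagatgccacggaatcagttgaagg
DRAIC: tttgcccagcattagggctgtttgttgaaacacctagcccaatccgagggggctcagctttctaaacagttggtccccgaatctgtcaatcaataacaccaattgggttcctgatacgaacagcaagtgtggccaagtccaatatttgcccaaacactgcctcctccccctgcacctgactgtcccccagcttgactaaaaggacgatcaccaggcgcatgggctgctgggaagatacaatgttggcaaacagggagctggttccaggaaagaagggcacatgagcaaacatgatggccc
H19 held 1 half-site, 117 bases before its start, and PCA3 and DRAIC held 0. Among windows not shown, PCGEM1 held 1 half-site, 191 bases before its start. A window of MALAT1 held 1, 41 bases before its start, with a TATA motif 30 bases before. Neither of these RNAs was called with androgen in the main edgeR tests. Of all 35116 windows of this length 14.8% held the half-site, and the full palindrome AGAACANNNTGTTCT was in 0.00285%. The E-box CACGTG (7.26% of windows) and the TATA motif TATAAA (11.5%) were searched too, and the 3 windows shown held 0 of either. A match is only a run of letters, and 0 matches says only that these letters are not in this window.

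Libraries held 15440141 to 44779246 counts, and levels below are CPM (counts scaled to a common library total) with library sizes scaled over all lines. Summed levels of liver transcripts and of RNAs without a poly(A) tail differed between plastic control and the other groups in most lines. Whether these transcripts came from the cultured cells was not tested. The 10 liver transcripts summed to 16.99 to 17.6 CPM in RWPE plastic control against 0 to 0.587 in its other libraries, 15.7 to 22.8 against 2.08 to 7.61 in LNCaP, 7.75 to 14.2 against 0.0636 to 0.917 in MDAPCa2a, and 77.003 to 172 against 44.4 to 385 in VCaP, where they overlapped. APOA2, FGB and FGG were at 0 in LNCaP on ACP in control medium. The 13 of 25 listed RNAs without a poly(A) tail that have a row summed to 0.796 to 1.59 CPM in RWPE plastic control against 7.72 to 339 in its other libraries, 2.34 to 2.38 against 9.84 to 166 in LNCaP, 3.88 to 3.93 against 24.3 to 183 in VCaP, and 1.46 to 59.1 against 16.7 to 204 in MDAPCa2a, where they overlapped. Plastic control is also the continuous culture, so in comparisons within a line against it, the kind of culture cannot be told apart from surface or medium. Of 5 line markers, KRT5, a basal keratin, averaged 7486 CPM in RWPE plastic control and 9.04 in LNCaP. KLK3, the gene of prostate-specific antigen, averaged 2838 CPM in LNCaP, 5453 in MDAPCa2a, 70.0 in VCaP and 13.4 in RWPE. KLK3 thus set VCaP less clearly apart from RWPE than the other cancer lines. Nothing in the labels says that replicates came from separate cultures, so the tests measure the spread between these libraries, which may be technical. A lower level in bulk RNA can mean fewer cells with the transcript or less of it per cell, which cannot be told apart. Where groups within a line are said not to overlap, the share of all genes that do the same was not computed. With 2 libraries in most groups, unrelated genes often separate by chance, so lack of overlap is only a description.

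Each of the prostate cancer RNAs had its own distribution over the lines. PCAT1, SCHLAP1 and PCGEM1 had their highest group in LNCaP, DRAIC and PCA3 in MDAPCa2a, NEAT1 and MALAT1 in VCaP, and H19 in RWPE. Adjusted p values between lines are from edgeR's quasi-likelihood test with Benjamini-Hochberg adjustment over 17323 genes, and errors of log2 differences are standard errors.

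**Figure D1:**
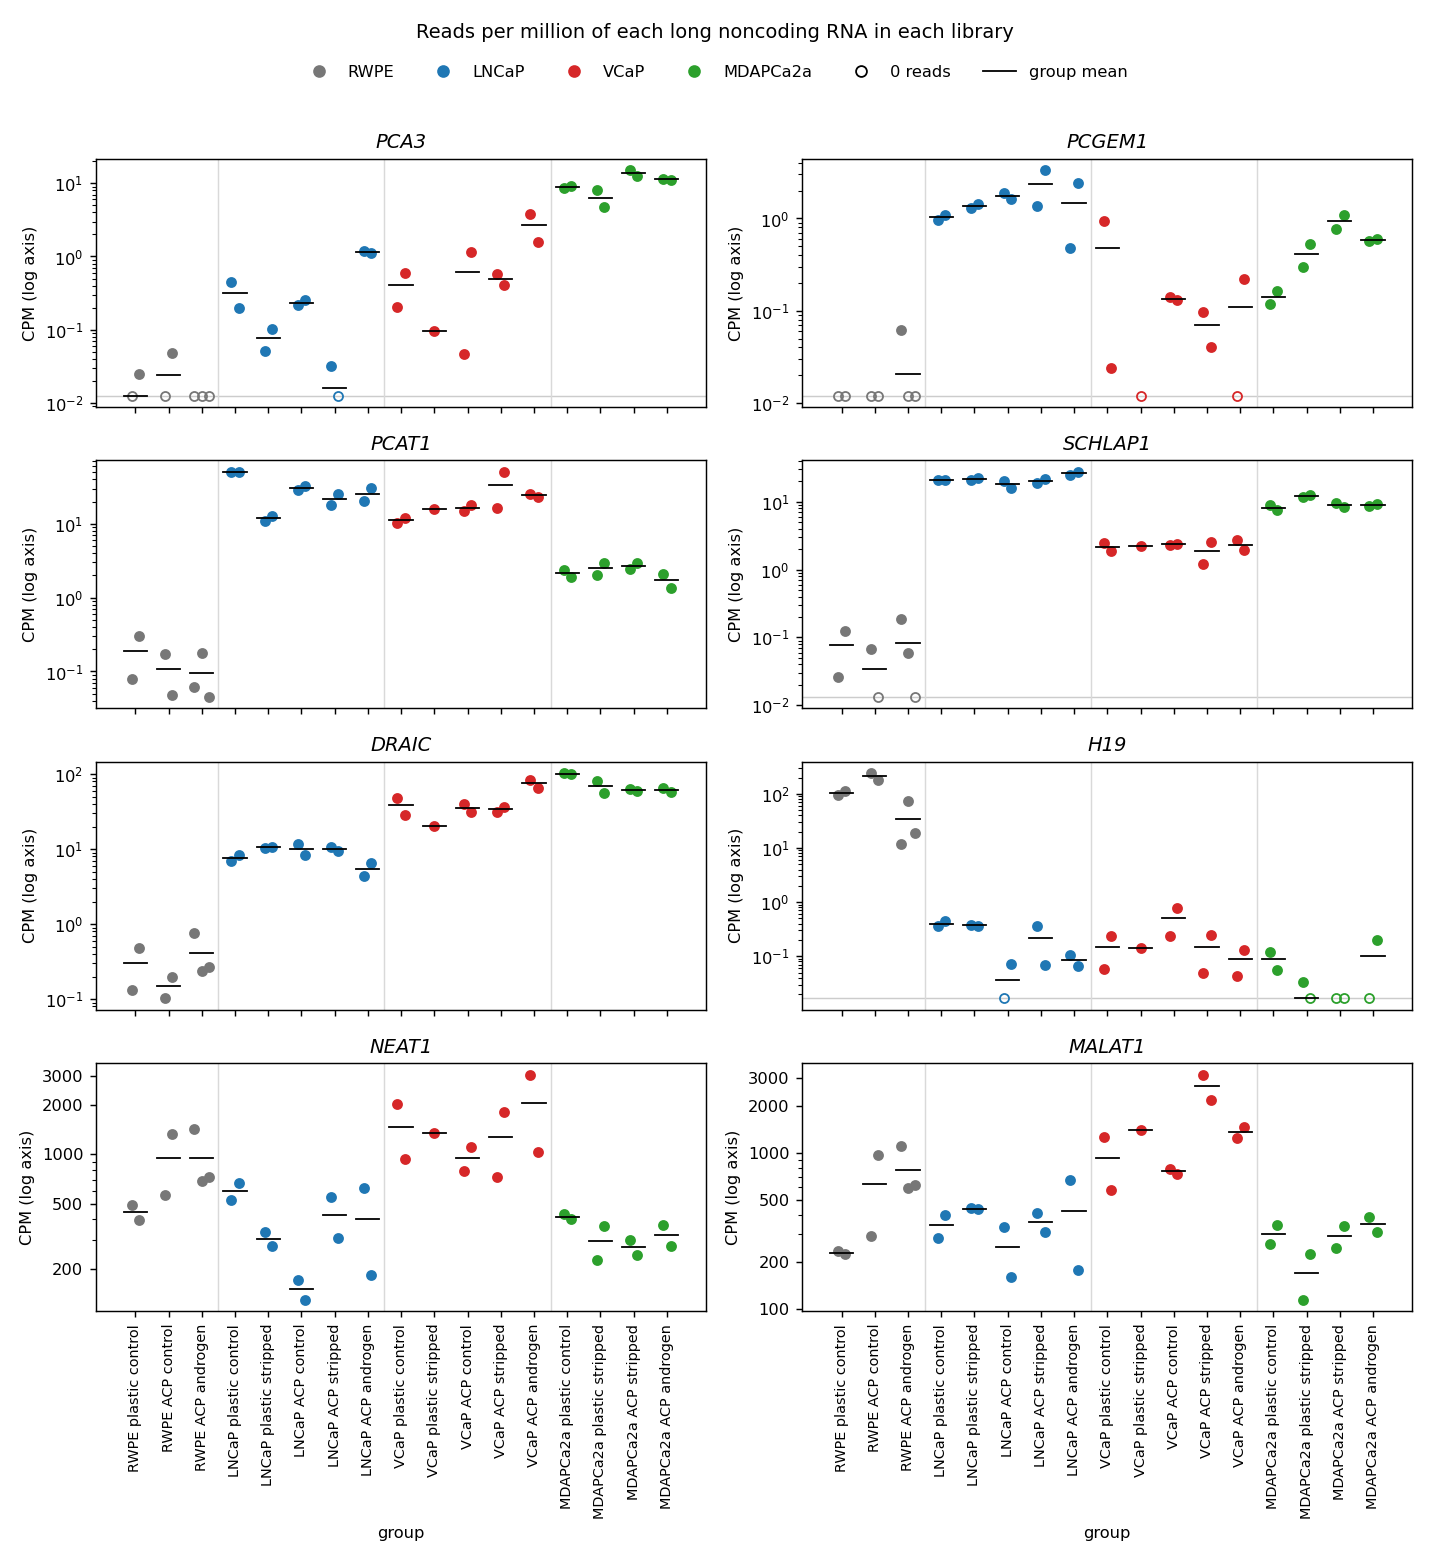
Level of each RNA in each library in CPM on a log axis, with 1 point per library, a bar at the group mean and open circles on the base line for 0 reads. Colours are the cell lines and the groups run along the horizontal axis. H19 lies at 11.7 to 241 CPM in the 7 RWPE libraries and at 0.0433 to 0.777 CPM in VCaP.

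SCHLAP1, reported to interact with a chromatin-remodelling complex, kept to a narrow level in each line. Its 10 LNCaP libraries ran from 15.9 to 27.5 CPM (median 21.0), the 8 of MDAPCa2a from 7.42 to 12.4 (median 9.06) and the 9 of VCaP from 1.22 to 2.73 (median 2.30). RWPE held 0 to 5 reads. The ranges of the 4 lines did not overlap. The highest and lowest group means within a line were 1.44-fold apart in LNCaP, 1.49-fold in MDAPCa2a and 1.24-fold in VCaP. In plastic control MDAPCa2a was below LNCaP (log2 -1.35 ± 0.31, adjusted p 0.00121) and VCaP below MDAPCa2a (-1.91 ± 0.33, adjusted p 3.30e-05).

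PCAT1 was highest in LNCaP and VCaP. It ran from 11.1 to 50.7 CPM in LNCaP (median 26.9), 10.2 to 50.1 in VCaP (median 16.2), 1.36 to 2.96 in MDAPCa2a (median 2.24) and 0.0451 to 0.303 in RWPE. Only LNCaP and VCaP overlapped. In plastic control VCaP was lower than LNCaP (log2 -2.18 ± 0.37, adjusted p 2.43e-05), and on ACP with androgen the difference was -0.06 ± 0.36 (adjusted p 0.901). MDAPCa2a was below LNCaP in plastic control (-4.56 ± 0.42, adjusted p 3.36e-09) and on ACP with androgen (-3.87 ± 0.43, adjusted p 7.73e-08).

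DRAIC was low in RWPE, intermediate in LNCaP and high in the lines from bone metastases. RWPE libraries held 0.102 to 0.751 CPM, LNCaP 4.39 to 11.6, VCaP 20.6 to 84.3 and MDAPCa2a 55.8 to 103. Only the ranges of VCaP and MDAPCa2a overlapped. In plastic control VCaP exceeded LNCaP (log2 2.34 ± 0.31, adjusted p 6.59e-07) and was below MDAPCa2a (-1.40 ± 0.29, adjusted p 2.86e-04). On ACP with androgen VCaP minus MDAPCa2a was 0.30 ± 0.29 (adjusted p 0.403). PCAT29, the gene next to DRAIC, had a mean of 0.955 CPM in its highest group, MDAPCa2a on plastic in stripped medium.

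PCA3 had over 100 reads in MDAPCa2a libraries only, with 4.72 to 15.0 CPM (117 to 336 reads). VCaP libraries held 0.0470 to 3.77 CPM (1 to 87 reads), LNCaP 0 to 1.17 CPM (0 to 34 reads) and RWPE 0 to 1 reads, with 5 of 7 libraries at 0. MDAPCa2a exceeded LNCaP in plastic control (log2 4.78 ± 0.68, adjusted p 5.03e-06) and on ACP with androgen (3.31 ± 0.62, adjusted p 1.47e-04). Against the RWPE androgen libraries, all 3 at 0 reads, PCA3 was at least 209-fold higher in MDAPCa2a, at least 49.2-fold in VCaP and at least 21.0-fold in LNCaP, with a floor of 3 counts over the group.

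PCGEM1 had few reads in every line. LNCaP held 0.484 to 3.33 CPM (14 to 95 reads) and MDAPCa2a 0.119 to 1.10 CPM (4 to 19 reads). In VCaP plastic control the replicates had 32 and 1 reads, and every other VCaP library had 5 or fewer. In RWPE 6 of 7 libraries had 0 reads and 1 had 1 read. On ACP with androgen the ratio of LNCaP to RWPE was 82.4 (89 against 1 reads, exact 95% counting interval 14.4 to 3290). MDAPCa2a minus LNCaP in plastic control was log2 -2.81 ± 0.97, adjusted p 0.0236, and without any 1 of the 4 libraries the adjusted p was 0.0542 to 0.134.

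H19 was high in RWPE only. RWPE libraries held 11.7 to 241 CPM (187 to 7071 reads), LNCaP 0 to 20 reads, VCaP 1 to 18 and MDAPCa2a 0 to 4. In plastic control the log2 difference from RWPE was -8.01 ± 0.75 in LNCaP (adjusted p 2.80e-09), -9.34 ± 0.83 in VCaP (adjusted p 1.11e-09) and -10.17 ± 0.89 in MDAPCa2a (adjusted p 9.43e-10). Group means of H19 outside RWPE, and of PCA3, PCAT1, SCHLAP1 and DRAIC in RWPE, lie under 0.5% of that RNA's highest group. Carry-over of reads between libraries was not tested, and how large these differences are is therefore uncertain. IGF2, the growth factor gene beside H19, averaged 1.14 CPM in RWPE plastic control, its highest group, and 0.367 CPM in RWPE ACP control, where H19 was highest.

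NEAT1 and MALAT1 were abundant in every line. RWPE held 397 to 1422 CPM of NEAT1, LNCaP 129 to 665, VCaP 725 to 3075 and MDAPCa2a 224 to 432. MALAT1 was at 222 to 1102, 159.8 to 664, 573 to 3168 and 114 to 389 CPM in the same order. VCaP lay above MDAPCa2a without overlap for both. On ACP with androgen VCaP exceeded MDAPCa2a for NEAT1 (log2 2.68 ± 0.57, adjusted p 3.69e-04) and MALAT1 (1.95 ± 0.53, adjusted p 0.00322), also without any 1 of the 4 libraries. In plastic control the differences were 1.83 ± 0.55, adjusted p 0.00749 and 1.61 ± 0.52, adjusted p 0.0116. Without VCaP plastic control replicate 1 they were 1.17 (adjusted p 0.128) and 0.93 (adjusted p 0.201), and NEAT1 also lost the call without MDAPCa2a replicate 2 and MALAT1 without MDAPCa2a replicate 1.

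Of the 8 RNAs, the tests between lines in plastic control called 6 in LNCaP against RWPE (5 higher, 1 lower, where 57.4% of all genes were called), 8 in VCaP against RWPE (7 and 1, 62.4%) and 6 in MDAPCa2a against RWPE (5 and 1, 56.7%). VCaP against LNCaP gave 5 (3 and 2, 52.6%), MDAPCa2a against LNCaP 5 (2 and 3, 40.2%) and VCaP against MDAPCa2a 6 (3 and 3, 52.4%). On ACP with androgen the calls against RWPE were 7 in LNCaP (5 and 2, 66.9%), 6 in VCaP (5 and 1, 67.4%) and 8 in MDAPCa2a (5 and 3, 64.0%). VCaP against LNCaP gave 5 (3 and 2, 56.0%), MDAPCa2a against LNCaP 4 (2 and 2, 45.3%) and VCaP against MDAPCa2a 5 (3 and 2, 51.4%). With 40.2% to 67.4% of all genes called, the counts are no result about these RNAs.

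The response to added androgen was measured on ACP against stripped medium, between groups that are all day 4 cultures. The plastic control libraries entered each line's fit only through its spread and scaling, and without them 696 genes were called in LNCaP, against 1133 with them, and 3036 against 2727 in VCaP. PCA3 rose in LNCaP, DRAIC rose in VCaP, and neither passed in MDAPCa2a. Among 16 androgen-induced genes 13 rose and 0 fell of 16 tested (median log2 1.83, all genes -0.01) in LNCaP, where 7.73% of all genes were called, 12 rose and 0 fell of 16 tested (median log2 1.34, all genes -0.03) in VCaP, where 17.5% were, and 0 rose and 0 fell of 16 tested (median log2 -0.25, all genes -0.01) in MDAPCa2a, where 0.0% were and 0 of the list had an unadjusted p below 0.05. KLK3 rose in LNCaP (log2 1.01 ± 0.17, adjusted p 0.00722) and VCaP (4.77 ± 0.74, adjusted p 0.00384), and its value in MDAPCa2a was -0.46 ± 0.26 (adjusted p 0.968). Adjusted p values within a line are from edgeR over all genes of that line's fit.

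PCA3 had 1 and 0 reads in the LNCaP libraries on ACP in stripped medium and 34 and 34 reads (1.17 and 1.11 CPM) with androgen. Both androgen libraries lay above all 8 other LNCaP libraries, the highest of which had 0.44 CPM. The ratio was 67.9 (68 against 1 reads, exact 95% counting interval 11.8 to 2720), an interval that covers counting error only, and the fitted log2 difference was 5.79 ± 0.88, adjusted p 0.00356. PCA3 was the 1 RNA of 8 called, where 7.73% of all genes were. Without any 1 library the fitted value was 4.99 to 8.24, and without ACP stripped replicate 2 the adjusted p was 0.052.

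In VCaP PCA3 had 0.585 and 0.410 CPM (12 and 10 reads) in stripped medium and 3.77 and 1.58 CPM (87 and 36 reads) with androgen. These groups did not overlap, and the log2 difference of 2.42 ± 1.00 did not pass (adjusted p 0.118) except without the count filter (0.0257). MDAPCa2a held 15.0 and 12.5 CPM in stripped medium and 11.6 and 11.2 CPM with androgen (-0.32 ± 0.26, adjusted p 0.968). MDAPCa2a minus LNCaP, the difference of the androgen effects, was -6.02 ± 1.31, adjusted p 0.0204, 1 of 8 RNAs called where 1.12% of genes were. It missed the threshold without 6 of the 8 libraries (-8.25 to -5.23, adjusted p 0.0139 to 0.148) and rests on the 1 read of LNCaP in stripped medium. VCaP minus LNCaP was -3.32 ± 1.51, adjusted p 0.17, and VCaP minus MDAPCa2a was 2.70 ± 0.88, adjusted p 0.062, where 0 of 8 RNAs were called with edgeR (7.86% of genes, 2 RNAs at an unadjusted p below 0.05, 2 with DESeq2). DESeq2 called 1956 of 15245 genes there, and the share of all genes at an unadjusted p below 0.05 was not computed.

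PRUNE2, the protein-coding gene whose intron holds PCA3 on the other strand, was read far more often. In LNCaP on ACP it had 310.4 and 302 CPM in stripped medium and 1270.3 and 597 CPM with androgen. PRUNE2 thus also rose (log2 1.60 ± 0.29, adjusted p 0.00852), by less than the value fitted for PCA3. In VCaP it had 361 and 506 CPM against 910.4 and 443 CPM (0.64 ± 0.45, adjusted p 0.344). Per 1000 PRUNE2 reads there were 0 to 1.86 PCA3 reads in LNCaP libraries, 0.165 to 4.14 in VCaP and 4.05 to 15.8 in MDAPCa2a. RWPE had 0 to 12.2, with 0 to 1 PCA3 reads per library. On ACP in LNCaP this ratio was 0.104 and 0 in stripped medium and 0.925 and 1.86 with androgen. It was 1.62 and 0.811 against 4.14 and 3.56 in VCaP, and 15.8 and 9.7 against 10.8 and 8.16 in MDAPCa2a. The counting strand is not given in the sources used here, so reads of the overlapping genes cannot be told apart. As a description over libraries that share groups, PCA3 and PRUNE2 correlated at r = 0.72 in LNCaP (10 libraries), 0.68 in VCaP (9) and -0.01 in MDAPCa2a (8). In RWPE (7 libraries), with 0 to 1 PCA3 reads each, r was 0.62.

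**Figure D2:**
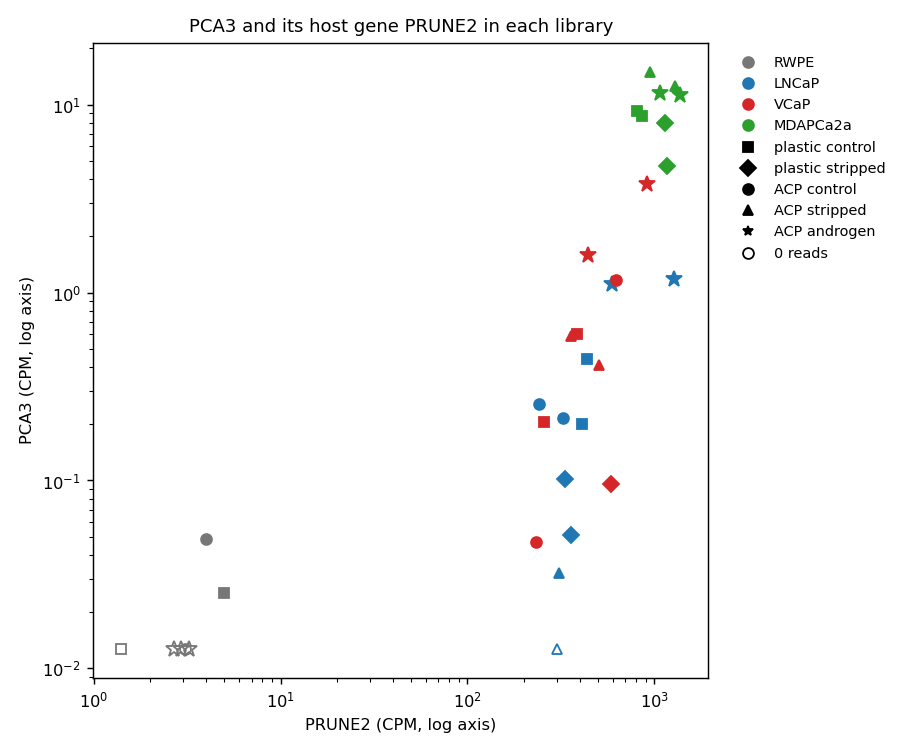
PCA3 against PRUNE2 in each library, both in CPM on log axes, with colours for cell lines and open symbols for 0 PCA3 reads. MDAPCa2a libraries hold 4.72 to 15.0 CPM of PCA3, and the LNCaP and VCaP libraries with androgen (1.17 and 1.11 CPM in LNCaP, 3.77 and 1.58 CPM in VCaP) are the highest of their lines.

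DRAIC had 31.5 and 36.1 CPM in VCaP on ACP in stripped medium and 84.3 and 66.4 CPM with androgen. Both androgen libraries exceeded all 7 other VCaP libraries. The rise of log2 1.16 ± 0.28 passed (adjusted p 0.0211), the 1 call among 8 RNAs where 17.5% of genes were called. Without any 1 of the 4 libraries the value was 1.00 to 1.31 and the adjusted p 0.0519 to 0.102. In LNCaP it had 10.6 and 9.39 CPM in stripped medium and 4.39 and 6.53 CPM with androgen, groups that did not overlap, with the opposite sign (-0.89 ± 0.25, adjusted p 0.0522). That value passed with DESeq2 (adjusted p 0.0166), without the count filter (0.0120) and without LNCaP ACP androgen replicate 2 (0.0228). MDAPCa2a held 63.7 and 59.4 CPM, and 64.8 and 57.7 CPM with androgen (-0.05 ± 0.19, adjusted p 0.982).

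The test of the difference itself called DRAIC: the androgen effect in VCaP exceeded that in LNCaP by log2 2.03 ± 0.42 (adjusted p 0.00343), the 1 call of 8 where 10.9% of genes were called. It was called without each of the 8 libraries in turn (1.77 to 2.34, adjusted p 0.0034 to 0.0258). VCaP minus MDAPCa2a was 1.16 ± 0.41, adjusted p 0.082, which passed with DESeq2 and without the count filter, and MDAPCa2a minus LNCaP 0.86 ± 0.42, adjusted p 0.426. The RNAs without a poly(A) tail summed to 24.3 to 29.0 CPM in stripped and 133 to 183 CPM in androgen medium in VCaP, and to 9.84 to 41.8 and 71.3 to 150.0 CPM in LNCaP. Their part in the DRAIC and PCA3 results was not tested.

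The other RNAs gave no call with androgen in the cancer lines with edgeR. SCHLAP1 had 18.9 and 21.9 CPM in stripped medium and 24.4 and 27.5 CPM with androgen in LNCaP, without overlap (0.33 ± 0.18, adjusted p 0.3). PCAT1 differed by log2 0.22 ± 0.23, adjusted p 0.619 in LNCaP and -0.45 ± 0.41, adjusted p 0.47 in VCaP. PCGEM1 in LNCaP went from 42 and 95 reads to 14 and 75 (-0.69 ± 0.60, adjusted p 0.526). Without any 1 library its value was -2.27 to 0.11, and without ACP androgen replicate 2 it was called at -2.27 (adjusted p 0.0381). In MDAPCa2a 0 of 7 RNAs passed with edgeR, 0 with DESeq2 and 0 at an unadjusted p below 0.05, and 0.0% of all genes were called.

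**Figure D3:**
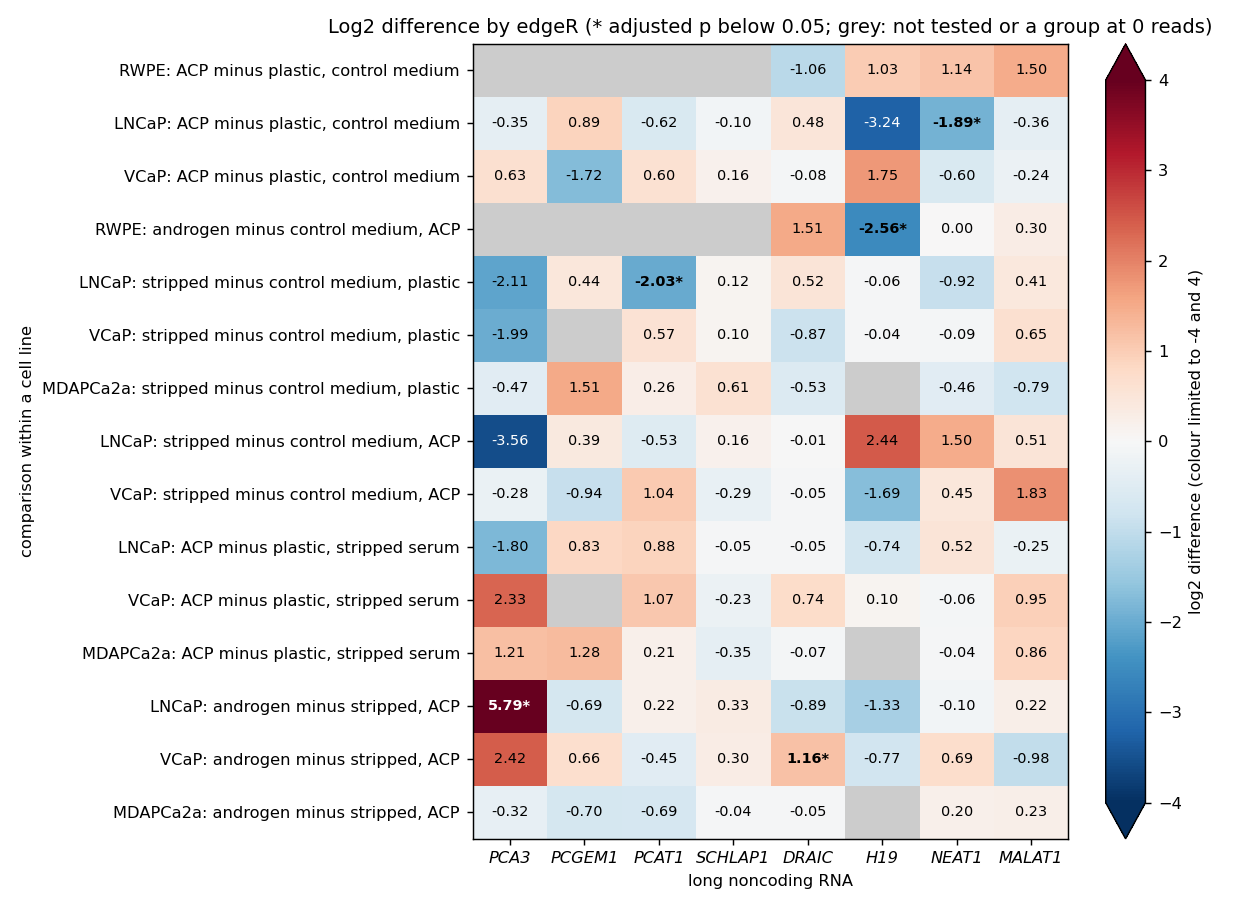
Log2 difference of each RNA (columns) in each comparison within a line (rows), coloured from blue for lower to red for higher and limited to -4 and 4. Asterisks mark an adjusted p below 0.05 and grey marks values not tested or with a group at 0 reads. There are 5 marked values, in 5 different comparisons: NEAT1, PCAT1 and PCA3 in LNCaP, DRAIC in VCaP and H19 in RWPE.

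PCAT1 was lower in stripped than in control medium in LNCaP on plastic. Its level was 50.7 and 50.5 CPM in control medium and 11.1 and 13.0 CPM in stripped medium. The groups lay far apart, and the log2 difference was -2.03 ± 0.24, adjusted p 6.46e-04, called without each of the 4 libraries (-2.19 to -1.87, adjusted p 0.00437 to 0.0149). It was the 1 call among 8 RNAs where 9.45% of genes were called. Among the androgen-induced genes 1 rose and 12 fell of 16 tested (median log2 -1.75, all genes -0.01), against the same 9.45% of all genes. The control libraries are plastic controls, so the kind of culture and the medium cannot be told apart here. Liver transcripts summed to 2.19 to 3.21 CPM and poly(A)-less RNAs to 14.4 to 29.2 CPM in stripped medium. On ACP, where control medium is also a day 4 culture, PCAT1 had 28.5 and 33.0 CPM in control, 17.7 and 25.3 CPM in stripped and 20.1 and 30.5 CPM in androgen medium (stripped minus control -0.53 ± 0.23, adjusted p 0.212). The androgen-induced genes summed there to 4584 to 6246 CPM in control and 3115 to 3514 CPM in stripped medium. Other lines had no such fall. VCaP on ACP had 11339 to 12772 and 11610 to 11879 CPM, which overlapped. On plastic VCaP had 13922.5 to 15066 CPM and 13695 CPM in its 1 stripped library. MDAPCa2a on plastic was higher in stripped medium (15201.5 to 17920 CPM) than in control (10544.5 to 10959 CPM).

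In stripped medium PCAT1 had higher values on ACP than on plastic in LNCaP, without overlap, and the log2 difference of 0.88 ± 0.24 missed the threshold (adjusted p 0.0516). The change of the ACP effect with serum was 1.50 ± 0.33, adjusted p 0.116. Both passed with DESeq2 and without the count filter. VCaP had 14.8 and 17.9 CPM on ACP in control and 16.2 and 50.1 CPM in stripped medium (1.04 ± 0.42, adjusted p 0.258), and its stripped replicates lay far apart. MDAPCa2a had 2.35 and 1.93 CPM in plastic control and 2.06 and 2.95 CPM on plastic in stripped medium (0.26 ± 0.33, adjusted p 0.778).

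MALAT1 had its highest levels in VCaP on ACP in stripped medium. Control medium gave 782 and 734 CPM, stripped medium 3168 and 2167 CPM and androgen medium 1240.3 and 1464 CPM, and none of these groups overlapped. Stripped minus control was log2 1.83 ± 0.36 with an adjusted p of 0.0515, and it passed with RLE scaling, with DESeq2, without the count filter, without the plastic control libraries in the fit and without ACP stripped replicate 2. Androgen minus stripped was -0.98 ± 0.35, adjusted p 0.0817, a comparison that shares the stripped libraries. It passed with DESeq2 (adjusted p 0.0219), without the count filter (0.0126) and without the plastic control libraries in the fit (0.0197). NEAT1 was 787 and 1106 CPM in control, 725 and 1825 CPM in stripped and 3075 and 1041 CPM in androgen medium, and these groups overlapped. The poly(A)-less RNAs summed to 46.4 to 142 CPM in control and 24.3 to 29.0 CPM in stripped medium, and their part was not tested.

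In the remaining comparisons of stripped with control medium 0 RNAs were called with edgeR. On ACP these were 0 of 8 in LNCaP (5.37% of genes called, 3 RNAs at an unadjusted p below 0.05, 0 with DESeq2) and 0 of 8 in VCaP (0.82% of genes, 2 and 1). On plastic they were 0 of 8 in VCaP, with 1 stripped library (0.89% of genes, 1 and 0), and 0 of 7 in MDAPCa2a (1.58% of genes, 4 and 0). The share of all genes at an unadjusted p below 0.05 was not computed, so those counts are no result about these RNAs. DESeq2 called 1307 of 14945 genes in LNCaP and 850 of 14103 in VCaP on ACP. For MDAPCa2a on plastic it called 590 of 14583. In MDAPCa2a on plastic DRAIC had 103 and 101 CPM in control and 82.1 and 55.8 CPM in stripped medium (-0.53 ± 0.19, adjusted p 0.215). SCHLAP1 had 8.87 and 7.42 CPM in control and 11.8 and 12.4 CPM in stripped medium (0.61 ± 0.21, adjusted p 0.194). Neither pair of groups overlapped, which with 2 libraries in each is only a description. PCA3 in LNCaP on ACP had 6 and 7 reads in control and 1 and 0 in stripped medium, a ratio of 14.0 (13 against 1 reads, exact 95% counting interval 2.10 to 594) with an adjusted p of 0.0838.

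NEAT1 was lower on ACP than on plastic in LNCaP in control medium. Plastic control held 528 and 665 CPM and ACP control 170.0 and 129 CPM, the lowest NEAT1 levels of all 34 libraries. The log2 difference was -1.89 ± 0.45, adjusted p 0.0247, the 1 call of 8 where 12.6% of genes were called. Without any 1 of the 4 libraries it was -2.15 to -1.70, with an adjusted p of 0.0717 to 0.135. Lymphoid transcripts (9 of 10 in the table) summed to 13.5 to 16.97 CPM in plastic control and 3.76 to 4.16 CPM on ACP. A single gene, CD74, had 955 reads over the plastic control libraries, a large part of that sum. CD3E, CD52 and MS4A1 were at 0 in plastic control, and CD52 alone on ACP. Their part, and that of the liver and poly(A)-less RNAs given above, was not tested. In stripped medium NEAT1 had 334 and 276 CPM on plastic and 547 and 309.7 CPM on ACP (0.52 ± 0.44, adjusted p 0.489), and the change of the ACP effect with serum was 2.42 ± 0.63, adjusted p 0.193, which passed only without the count filter.

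RWPE values had the opposite sign. NEAT1 had 491 and 397 CPM on plastic and 563 and 1341 CPM on ACP (1.14 ± 0.43, adjusted p 0.152), and MALAT1 235 and 222 CPM on plastic and 293 and 964 CPM on ACP (1.50 ± 0.48, adjusted p 0.101). Both passed without the count filter. ACP control replicate 2 was the higher in both. VCaP had 2023 and 931 CPM of NEAT1 on plastic and 787 and 1106 CPM on ACP (-0.60 ± 0.56, adjusted p 0.787). Whether the surface effect in control medium differs between these lines was not tested.

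PCA3 in MDAPCa2a in stripped medium had 7.999 and 4.72 CPM on plastic and 15.0 and 12.5 CPM on ACP, without overlap (1.21 ± 0.27, adjusted p 0.185). It passed with DESeq2, without the count filter and without ACP stripped replicate 2 (adjusted p 0.0481). PRUNE2 had 1146 and 1165 CPM on plastic and 952 and 1294 CPM on ACP (0.04 ± 0.20, adjusted p 0.927). Surface comparisons without a call with edgeR were RWPE in control medium (0 of 4 RNAs, 4.16% of genes called, 2 RNAs at an unadjusted p below 0.05, 0 with DESeq2), VCaP in control medium (0 of 8, 0.0448%, 0 and 0), and in stripped medium LNCaP (0 of 8, 6.12%, 1 and 1), VCaP with 1 plastic library (0 of 8, 0.0%, 0 and 0) and MDAPCa2a (0 of 7, 0.00734%, 3 and 1). The difference of the ACP effect between LNCaP and MDAPCa2a called 0 of 8 (0.358%, 0 and 0), and that between stripped and control medium in LNCaP 0 of 8 (0.307%, 2 and 1). Again no share of all genes at an unadjusted p below 0.05 was computed, so those counts are no result about these RNAs. DESeq2 called 1324 of 15290 genes in RWPE and 41 of 17591 in VCaP in control medium. In stripped medium it called 1731 of 13777 in LNCaP and 206 of 13477 in MDAPCa2a. For the differences of effects, in the order given, it called 206 of 15245 and 201 of 14945.

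H19 fell in RWPE on ACP when control medium was replaced by androgen medium. It had 241 and 178 CPM in control and 11.7, 73.8 and 19.1 CPM in androgen medium. The groups did not overlap, and the log2 difference was -2.56 ± 0.58, adjusted p 0.0204, the 1 call among 4 RNAs tested where 19.1% of genes were called. PCA3, PCGEM1, PCAT1 and SCHLAP1 had too few reads in RWPE for the test. Without any 1 library the value was -3.74 to -2.15, and without ACP control replicate 1 or replicate 2 the call was lost (adjusted p up to 0.275). RWPE control medium is serum-free and androgen medium contains stripped serum, so serum, supplements and androgen cannot be told apart. KRT5 averaged 9124 CPM in control and 4013 CPM in androgen medium. Fibroblast transcripts (10 of 10 in the table) summed to 30.5 to 34.9 and 16.3 to 23.1 CPM, with POSTN at 0 in both groups and COL6A3 at 0 with androgen, and their part was not tested.

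On plastic in control medium RWPE had 95.3 and 114 CPM of H19, below both ACP control libraries (ACP minus plastic 1.03 ± 0.63, adjusted p 0.357). In androgen medium NEAT1 had 1422, 684 and 729 CPM (0.00 ± 0.39, adjusted p 0.999) and MALAT1 1102, 595 and 617 CPM (0.30 ± 0.43, adjusted p 0.649), both overlapping the control libraries. In LNCaP H19 had 17 and 20 reads in plastic control and 0 and 2 on ACP in control medium, a ratio of 11.1 (37 against 2 reads, exact 95% counting interval 2.85 to 94.7) with an adjusted p of 0.058. It passed without the count filter and, barely, without ACP control replicate 2.

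NEAT1 and MALAT1 varied between replicates more than most well-read genes. In the 16 groups with 2 or more libraries, the highest over the lowest replicate was 1.08 to 3.40 for NEAT1 and 1.01 to 3.77 for MALAT1. It exceeded the median over 2338 to 2343 genes of at least 100 CPM in 15 groups for NEAT1 and in 14 for MALAT1. The widest pair was LNCaP on ACP with androgen, with NEAT1 at 619 and 182 CPM and MALAT1 at 664 and 176 CPM, where the median gene differed 1.12-fold and 0.556% and 0.47% of those genes differed as much. In 11 of 16 groups the library highest in NEAT1 was also the highest in MALAT1. The 5 exceptions were 3 VCaP and 2 MDAPCa2a groups. With 2 libraries in most groups, unrelated genes often share the highest library by chance. The share for other pairs of genes was not computed, so this count is no result about the 2 RNAs.

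**Figure D4:**
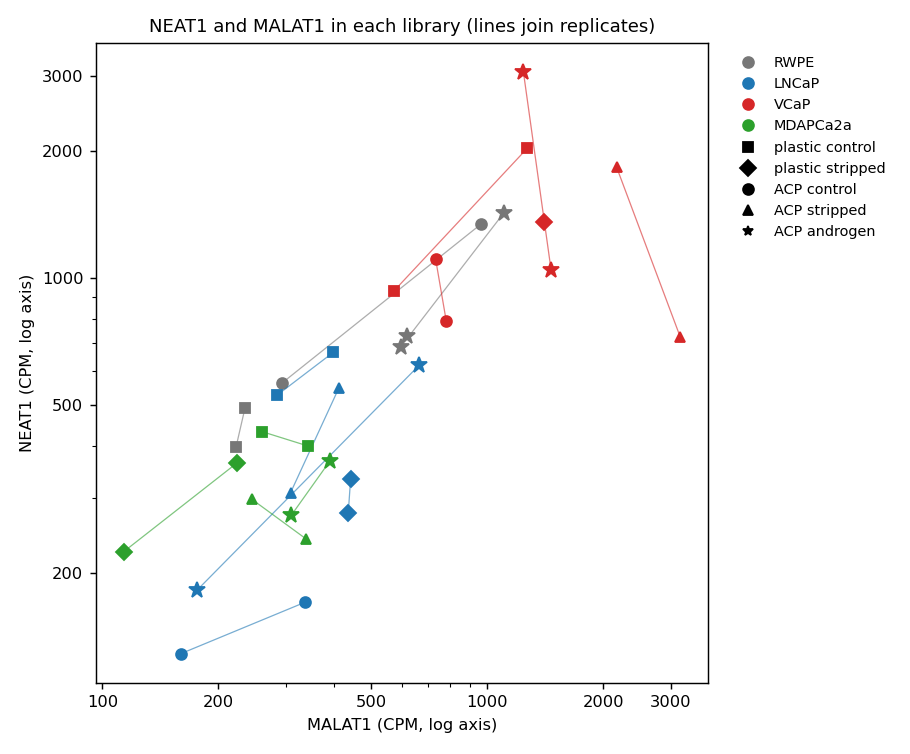
NEAT1 against MALAT1 in each library in CPM on log axes, with colours for cell lines, symbols for conditions and lines joining replicates of a group. Replicates of LNCaP with androgen lie 3.40-fold apart in NEAT1 and 3.77-fold apart in MALAT1, and in VCaP on ACP in stripped medium the replicate higher in MALAT1 is lower in NEAT1.

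Within lines, NEAT1 and MALAT1 correlated at r = 0.96 in RWPE (7 libraries), 0.71 in LNCaP (10), 0.45 in MDAPCa2a (8) and 0.09 in VCaP (9), as a description over libraries that share groups. MALAT1 and the long form of NEAT1 end without a standard poly(A) tail, so poly(A) selection can affect their yield. RPPH1, the RNA of ribonuclease P, also has none, and it correlated with NEAT1 at 0.77 in RWPE, -0.33 in LNCaP, -0.41 in MDAPCa2a and 0.09 in VCaP. With MALAT1 the values were 0.67, 0.20, -0.21 and 0.13 in that order. In RWPE androgen medium RPPH1 was 206, 3.82 and 2.80 CPM, and the first of these libraries was also the highest in NEAT1 and MALAT1. Its part in the spread was not tested.

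Of 30 genes of paraspeckle proteins, the partners of NEAT1, 1 rose and 2 fell of 30 tested (median log2 -0.02, all genes 0.02) in LNCaP on ACP against plastic in control medium, where NEAT1 fell and 12.6% of all genes were called. RBM3 rose from 263 to 397 CPM (0.70 ± 0.16, adjusted p 0.0235) and CIRBP, like RBM3 a cold-inducible RNA-binding protein, fell from 492 to 276 CPM (-0.73 ± 0.18, adjusted p 0.026). With androgen 0 rose and 4 fell of 30 tested (median log2 -0.15, all genes -0.01) in LNCaP, where 7.73% of all genes were called, and 0 rose and 2 fell of 29 tested (median log2 0.00, all genes -0.03) in VCaP, where 17.5% were. RBMX had log2 -0.75 ± 0.17, adjusted p 0.0246 in LNCaP and AHDC1 -1.64 ± 0.26, adjusted p 0.00431 in VCaP.

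Other long noncoding RNAs named in prostate cancer (52 of 56 with a row) give a frame for these RNAs. With androgen in LNCaP 2 rose and 7 fell of 39 tested (median log2 -0.37, all genes -0.01), where 7.73% of all genes were called. LINC00844 went from 0 to 66 reads, at least 22.0-fold, and HOXA11-AS fell from 5.95 to 1.16 CPM (-2.37 ± 0.30, adjusted p 0.00111). In VCaP 2 rose and 3 fell of 42 tested (median log2 -0.03, all genes -0.03), where 17.5% of all genes were called. PART1, an androgen-regulated prostate transcript, went from 38.5 to 119 CPM (1.63 ± 0.30, adjusted p 0.0073) and HOTTIP from 47.8 to 12.2 CPM (-1.97 ± 0.38, adjusted p 0.00936). In RWPE androgen medium 9 rose and 1 fell of 35 tested (median log2 0.13, all genes -0.02), where 19.1% of all genes were called. ZFAS1 went from 957 to 2639 CPM (1.49 ± 0.27, adjusted p 0.017) and UCA1 from 67.0 to 29.8 CPM (-1.15 ± 0.24, adjusted p 0.0183). In stripped against control medium in LNCaP on plastic 2 rose and 2 fell of 39 tested (median log2 -0.08, all genes -0.01), where 9.45% of all genes were called. HOXA11-AS went from 1.61 to 7.76 CPM (2.32 ± 0.28, adjusted p 8.59e-04).

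Genes whose mean level over the 17 groups followed each RNA most closely, by Pearson's r among 17322 genes, were SLMAP (0.95), CADPS2 (0.93) and PCTP (0.93) for PCA3, HYAL2 (0.95), CNGB3 (0.94) and CISD3 (0.94) for PCGEM1 and GNA14 (0.97), ATP6V1B2 (0.97) and TMEM134 (0.97) for PCAT1. SCHLAP1 was followed by GCNT2 (0.99), UFSP1 (0.99) and FECH (0.98), DRAIC by PDE3B (0.98), HLA-DMB (0.98) and CTNNB1 (0.97) and H19 by FADS3 (0.98), PDPN (0.98) and COL17A1 (0.97). For NEAT1 they were AATBC (0.92), SLC35G2 (0.91) and RIPPLY2 (0.91), and for MALAT1 PCDHB3 (0.91), RBM4 (0.91) and LINC01436 (0.91). These values are a description, and differences between the 4 lines weigh in them.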

How the data were processed

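Poly(A)-selected RNA of 34 libraries in 17 groups was analysed from the authors' deposited table of read counts per gene, which are whole numbers that were not normalized. STAR, HTSeq and hg19 are named in the submitters' processing notes, without versions or roles, and the strand setting is not given in the sources used here. Samples were grouped by their labels. Levels are CPM with trimmed-mean (TMM) library sizes over all lines. Differences were tested with edgeR 4.0.16 in R 4.3.3 (quasi-likelihood F test, TMM, filterByExpr with a minimum count of 10, Benjamini-Hochberg adjusted p below 0.05). Comparisons within a line used that line's libraries, and comparisons between lines or of effects used all 34. Standard errors were derived from the F statistic. Ratios with 3 or fewer reads in a group have an exact 95% interval. Genes named outside the listed RNAs were, per list and comparison, those with the largest called rise and fall, the neighbours, and the 3 most alike over group means. The listed RNAs and the gene lists were chosen with earlier results of these data known. Fits were tested on simulated data with the same spread for every gene. That setting does not represent RNAs that varied more between replicates, such as NEAT1 and MALAT1. Alternatives were RLE size factors, no count filter, DESeq2 1.42.0, a replicate block, leaving out each library and, chosen after seeing the data, fits without plastic control libraries.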

Additional observations from a re-analysis of the deposited data

Results flagged for a closer look

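The androgen effect on DRAIC differed between lines: on ACP, androgen minus stripped medium was larger in VCaP than in LNCaP by log2 2.03 ± 0.42 (SE, edgeR, adjusted p 0.00343), with higher levels in 2 of 2 VCaP and lower levels in 2 of 2 LNCaP libraries with androgen. For PCA3 the same effect was smaller in MDAPCa2a than in LNCaP, with a log2 difference of -6.02 ± 1.31 (SE, edgeR, adjusted p 0.0204) that rests on 1 read in the LNCaP stripped libraries. No group has the 4 libraries needed to look for a library far from the others.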

How the results depend on the processing

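Of 245 tested values of these RNAs 78 were called, and none of the alternatives reversed a called one. RLE lost 0 and gained 1, no filter lost 0 and gained 20, DESeq2 lost 0 and gained 9, and fits without plastic control libraries (40 of the called values) lost 2 and gained 2: NEAT1 in LNCaP against RWPE and MALAT1 in MDAPCa2a against RWPE, both on ACP with androgen, were lost. Without 1 library, 58 of 342 refits of called values lost the call, over 24 values, and 12 refits of values not called gained it.

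Counts of RNAs called moved as follows. Without the filter they were 2 for ACP minus plastic in RWPE and 3 in LNCaP in control medium, 2 for stripped minus control in LNCaP on plastic and 2 on ACP, 1 in MDAPCa2a on plastic and 1 in VCaP on ACP, 1 for ACP minus plastic in stripped medium in LNCaP and 1 in MDAPCa2a, 2 for androgen in LNCaP and 3 in VCaP, 2 for the androgen effect in VCaP minus MDAPCa2a, and 2 for the change of the ACP effect with serum. DESeq2 gave 2 for ACP minus plastic in LNCaP in control medium, 1 for stripped minus control in VCaP on ACP, 1 for ACP minus plastic in stripped medium in LNCaP and 1 in MDAPCa2a, 2 for androgen in LNCaP and 2 in VCaP, 2 for the androgen effect in VCaP minus MDAPCa2a and 1 for the change with serum. RLE gave 1 for stripped minus control in VCaP on ACP. Without plastic control libraries that count was 1 and the VCaP androgen count 2.

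Counts of all genes called moved by over 1.5 times as follows, with edgeR's count first, then DESeq2's and that without the count filter. They were 595, 1324 and 1226 for ACP minus plastic in RWPE and 7, 41 and 72 in VCaP in control medium. For the same contrast in stripped medium they were 897, 1731 and 1827 in LNCaP, 0, 4 and 1 in VCaP and 1, 206 and 320 in MDAPCa2a. Stripped minus control gave 139, 1158 and 1231 in VCaP and 215, 590 and 855 in MDAPCa2a on plastic, and 787, 1307 and 1732 in LNCaP and 128, 850 and 927 in VCaP on ACP. Androgen gave 1133, 1732 and 2028 in LNCaP and 0, 3 and 9 in MDAPCa2a, and the androgen effect in MDAPCa2a minus LNCaP 194, 470 and 493. The change of the ACP effect with serum gave 45, 201 and 338, and the ACP effect in LNCaP minus MDAPCa2a 62, 206 and 184. Without the filter alone, ACP minus plastic in LNCaP in control medium went from 1845 to 2933 and stripped minus control in LNCaP on plastic from 1385 to 2193. RLE gave 25 for stripped minus control in VCaP on plastic. Without plastic control libraries the counts were 696 for androgen in LNCaP and 1402, against 2730, in RWPE, 372 for ACP minus plastic in stripped medium in LNCaP and 0 in MDAPCa2a, and 504 for stripped minus control on ACP in LNCaP and 326 in VCaP.

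Nothing in the labels says that equal replicate numbers pair the samples. Correlations of same-numbered deviations ran from -0.234 to 0.207, values that cannot exclude a batch shared by equal numbers. With the replicate number as a block 9 calls were lost and 6 gained. The block gave 1 for ACP minus plastic in RWPE and 2 in LNCaP in control medium, 1 for stripped minus control on ACP in LNCaP and 1 in VCaP, 1 for ACP minus plastic in stripped medium in LNCaP, 1 for the change with serum and 3 for VCaP minus LNCaP in plastic control, where 5 were called without it. Of all genes it called 2661 for ACP minus plastic and 5741 for androgen in RWPE, and for stripped minus control in VCaP 3 on plastic and 340 on ACP.

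Without 1 library the counts were 0 to 1 for ACP minus plastic in LNCaP in control medium and in MDAPCa2a in stripped medium, 0 to 1 for RWPE androgen and for stripped minus control in VCaP on ACP, 0 to 3 for androgen in LNCaP and 0 in VCaP. Between lines in plastic control they were 5 to 6 for LNCaP minus RWPE, 5 to 8 for VCaP minus RWPE, 5 for MDAPCa2a minus RWPE, 3 to 5 for VCaP minus LNCaP, 4 for MDAPCa2a minus LNCaP and 4 to 7 for VCaP minus MDAPCa2a. On ACP with androgen they were 6 to 8, 5 to 7, 6 to 7, 3 to 6, 4 and 5 in the same order. For the androgen effects they were 1 for VCaP minus LNCaP, 0 to 1 for MDAPCa2a minus LNCaP and 0 to 1 for VCaP minus MDAPCa2a.

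Depth limits PCA3 in LNCaP and PCGEM1 in VCaP and RWPE, where groups hold a few reads. With 1 or 2 libraries in most groups, leaving 1 out leaves a lone library assumed to vary like the other groups.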

Other observations

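DSCAM-AS1, an antisense long noncoding RNA outside the 8 described above, was high in LNCaP on ACP in media with stripped serum. It had 107 to 144 CPM (3050 and 4445 reads) in stripped medium and 125 to 233 CPM (3840 and 6741 reads) with androgen. LNCaP held 0.596 to 0.761 CPM in plastic control, 0.282 to 0.459 CPM on plastic in stripped medium and 0.537 to 1.68 CPM on ACP in control medium, and no library of another line exceeded 0.563 CPM. In stripped medium ACP minus plastic was log2 8.53 ± 0.52 (SE, edgeR, adjusted p 2.36e-05), and the ACP effect changed with serum by 7.73 ± 0.76 (adjusted p 0.00132). Androgen minus stripped was 0.51 ± 0.32 (adjusted p 0.37). DSCAM-AS1 was named because it had the largest called rise of its list. Column headers of the high libraries begin with LNCaP-ACP, and those of ACP control and plastic stripped with LNCaP_ACP and LNCaP_Plastic. Whether these libraries were handled apart was not tested, and this cannot be told apart from surface and serum. The same holds for other comparisons of these libraries with the remaining LNCaP groups.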
